A study of Homo sapiens with 4 samples.

Results

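The ABC transporters examined here were 10 genes: ABCA1, ABCG1 and ABCA7, which handle cellular lipids, ABCB4, ABCB1 and ABCG2, and the ABCC members ABCC1, ABCC3, ABCC4 and ABCC5. They were taken as every probe set of the array whose annotation gave a single gene symbol on this list. That rule found 28 probe sets, out of 41091 with a single symbol and 54613 on the array, and all 10 of these genes, out of 19775, had at least 1. RNA was measured in 4 cell cultures, 1 array each. Jeko-1 is an established mantle cell lymphoma line and Raji an established Burkitt lymphoma line, both of B-cell origin. Jeko-1/R and Raji/R are sublines that were made resistant to rituximab, an antibody against the B-cell surface protein CD20, and labelled as treated with it. The parental cultures had no rituximab treatment. The sources used here do not give the dose, the length of exposure, whether the antibody was present at harvest or whether a subline is 1 clone. In such bulk RNA, fewer cells that express a gene and less RNA per cell cannot be told apart. The study set each subline against its parent to look for expression changes that go with resistance.

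ABC transporters are membrane proteins that use ATP to move substrates across a membrane. ABCB1, ABCG2 and ABCC1 are the classic pumps of drug resistance, which remove cytotoxic compounds from cells, whereas ABCA1 and ABCG1 pass cholesterol and phospholipid from cells to lipoproteins and are induced by the sterol-activated LXR nuclear receptors. Cholesterol is a main lipid of the plasma membrane, in which CD20 sits.

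Values are MAS5 signals, the array software's summary of a probe set's brightness, deposited on the log2 scale. The floor was the median of all values on the 4 arrays, a signal of 77.5 (log2 6.28); lower signals were raised to it, and a fold with 1 side below the floor is given as "at least". Of the 28 probe sets, 24 reached the floor on at least 1 array, 9 did so on all 4 arrays and 4 on none. Signals are compared between arrays for the same probe set and never between probe sets. A difference of 2-fold or more within a pair of arrays was counted, without a test, because each group had 1 array. With the same gene's probe sets as a stand-in for error, log2 ratios varied around the gene's mean by 0.25 (SD) between the Jeko-1 arrays and by 0.49 between the Raji arrays, which covers probe sets and not cultures. For Jeko-1 against Raji this spread was larger, 0.85 in parental and 0.96 in resistant cells. The standard errors of limma given below do not include it.

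The arrays held B-cell RNA. All 11 B-cell markers with a probe set reached the floor on each array, and the mantle cell genes CCND1 and SOX11 did so on both Jeko-1 arrays and neither Raji array. Of 12 T-cell markers 2 to 5 reached the floor on an array, of 8 NK-cell markers 1 to 5, of 12 myeloid markers 0 to 5, of 8 erythroid and platelet markers 1 to 5 and of 10 epithelial and stromal markers 4 to 7. PPBP and COL3A1 were the markers listed at a log2 value of 0 on an array. MS4A1, the gene of CD20, had signals of 24891 and 23236 in parental and resistant Jeko-1 cells and of 11514 and 11698 in parental and resistant Raji cells. The floor was reached by 55.6% of probe sets in Raji/R and by 48.0% to 48.3% elsewhere. The summed signal of the myeloid markers was 752 in Raji and 1322 in Raji/R, and that of the erythroid and platelet markers 758 and 1599; the part of this in the Raji results was not tested.

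**Figure D1:**
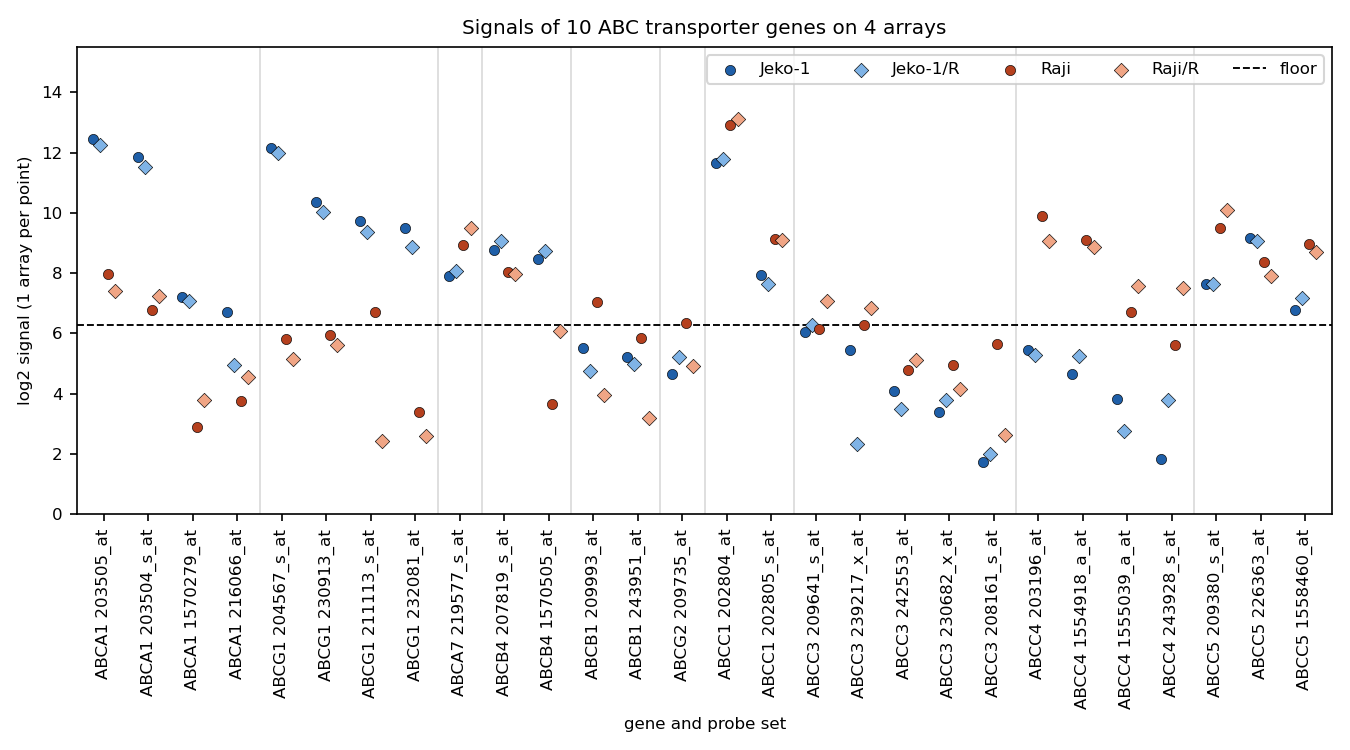
The log2 signal of each of the 28 probe sets (x axis, grouped by gene) on the 4 arrays, 1 point per array, with circles for parental and diamonds for resistant cells and a dashed line at the floor of 6.28. The ABCA1 and ABCG1 points of the Jeko-1 arrays stand above those of the Raji arrays, the ABCC4 points the other way, and the ABCB1, ABCG2 and ABCC3 points lie near or below the floor.

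The main pattern was a difference between the lines, not between resistant and parental cells. ABCA1 and ABCG1 were far higher in the Jeko-1 lines, and ABCC4, ABCC1 and ABCA7 were higher in the Raji lines. In both states, 7 of 24 measured probe sets were at least 2-fold higher in the Jeko-1 line and 7 at least 2-fold higher in the Raji line, against 18.7% and 15.3% of all 29669 measured probe sets. By the brightest probe set of each gene these were ABCA1 and ABCG1 (2 of 10 genes, against 17.5% of 15575 genes) on the Jeko-1 side and ABCC1, ABCC4, ABCC5 and ABCA7 (4 of 10, against 19.2%) on the Raji side. The count on the Jeko-1 side stood near the background, and the probe sets of ABCC5 disagreed. The 7 probe sets higher in Jeko-1 were 4 of ABCG1, 2 of ABCA1 and 1 of ABCB4. The 7 higher in Raji were 2 each of ABCC1, ABCC4 and ABCC5 and 1 of ABCA7. These 10 genes, and the lists further below, were chosen with earlier results of these data known. Their counts beside the background, those of limma included, are therefore a description and not a test. The median log2 difference between the lines was -0.16 over these 24 probe sets and -0.17 over all measured probe sets. In limma, with cell line and resistance as terms, 18 of 24 probe sets passed an adjusted p of 0.05 between the lines, 10 higher in Jeko-1 and 8 higher in Raji, against 49.7% of all probe sets. The p-values rest on 2 arrays per line, a parent and the subline made from it. With both terms fitted, the residual is how far the resistant against parental difference is unlike in the 2 lines. It has 1 degree of freedom. limma pools it with a prior spread shared by all probe sets, which weighs as 5.95 degrees of freedom. The standard errors and p-values thus rest mostly on that shared spread, and they do not measure the spread between separate cultures. Values below the floor entered limma as the floor. Where both arrays of a line were below it, the spread between them was left out. Without the floor limma called 0 of 41091 probe sets, while 16 of the 28 probe sets here had an unadjusted p under 0.05.

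**Figure D2:**
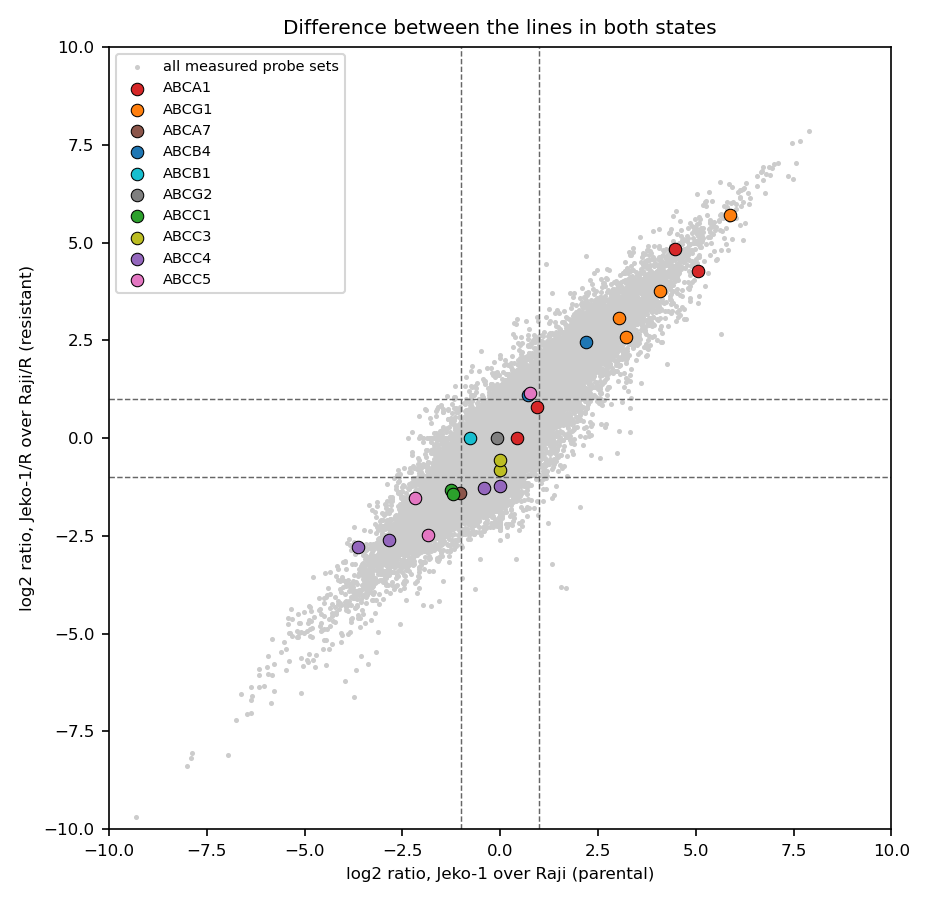
Log2 ratio of Jeko-1 over Raji in parental cells (x axis) and of Jeko-1/R over Raji/R in resistant cells (y axis), after the floor, for all 29669 measured probe sets (grey) and for the transporters (coloured by gene). Dashed lines mark 2-fold; ABCA1 and ABCG1 probe sets reach the upper right (up to 5.87 and 5.71) and ABCC4 the lower left (down to -3.63 and -2.79).

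ABCA1 loads cholesterol and phospholipid onto lipid-poor apolipoprotein A-I. Its brightest probe set, 203505_at, had signals of 5529 and 4838 in parental and resistant Jeko-1 cells, and of 251 and 171 in parental and resistant Raji cells. The 2 Jeko-1 arrays thus stood 22.0-fold above Raji in parental and 28.3-fold above it in resistant cells (limma log2 difference 4.64 ± 0.26 SE, adjusted p = 4.99e-05). A further probe set, 203504_s_at, gave 3654, 2936, 109 and 151 in the same order, a ratio of 33.5-fold and 19.4-fold. The dimmer 1570279_at had signals of 149 and 134 in the Jeko-1 lines and of 7.41 and 13.8 in the Raji lines, at least 1.92-fold and 1.73-fold apart, and 216066_at passed the floor only in Jeko-1, at 104. All 4 probe sets therefore had their highest signal in Jeko-1.

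ABCG1 passes cholesterol on to lipoprotein particles. Its brightest probe set, 204567_s_at, gave 4543 and 4048 in the parental and resistant Jeko-1 cells, and 56.8 and 35.5, both below the floor, in Raji and Raji/R. The lines were at least 58.6-fold apart in parental and at least 52.2-fold in resistant cells. In limma the log2 difference was at least 5.79 (± 0.25 SE, adjusted p = 3.73e-05). Both Raji values entered this fit as the floor, so its SE and p-value leave out the spread between the Raji arrays. The other 3 ABCG1 probe sets had signals of 466 to 1310 on the Jeko-1 arrays and of 5.42 to 105 on the Raji arrays. Their groups did not overlap, and each was at least 6.01-fold higher in the Jeko-1 line in both states. The share of all probe sets whose values separate the lines in this way was not counted, here or for the genes below. Macrophages are rich in both transporters; of the 12 myeloid markers, 0 and 2 reached the floor in parental and resistant Jeko-1 cells, and 2 and 5 in the Raji cells, and their part in the result was not tested.

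The promoter of ABCA1 carries a well-known LXR element, and its sequence is shown because ABCA1 was the member furthest apart for which the RefSeq table (GRCh38.p14) held a window. ABCC4, the member furthest apart in the other direction, and ABCB1, the classic drug pump, are shown beside it. The windows are the 250 bases before the start of the RefSeq gene, and 6 of the 10 genes had at least 1. Capitals mark matches on either strand to the GC box GGGCGG, the box CCAAT, the E-box CACGTG, the TATA box TATAAA and a DR4-like repeat, here 2 copies of GGTNA with 5 bases between them. No match overlapped another. ABCA1 lies at chr9:104928156-104928405, ABCB1 at chr7:87600885-87601134 (the one of its 2 windows that held a match) and ABCC4 at chr13:95301452-95301701, all on the minus strand and written 5′ to 3′.
ABCA1: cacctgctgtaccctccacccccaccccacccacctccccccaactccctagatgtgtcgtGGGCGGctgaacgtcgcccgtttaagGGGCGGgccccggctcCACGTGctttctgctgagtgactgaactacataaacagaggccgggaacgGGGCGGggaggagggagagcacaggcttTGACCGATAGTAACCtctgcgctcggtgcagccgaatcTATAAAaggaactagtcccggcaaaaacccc
ABCB1: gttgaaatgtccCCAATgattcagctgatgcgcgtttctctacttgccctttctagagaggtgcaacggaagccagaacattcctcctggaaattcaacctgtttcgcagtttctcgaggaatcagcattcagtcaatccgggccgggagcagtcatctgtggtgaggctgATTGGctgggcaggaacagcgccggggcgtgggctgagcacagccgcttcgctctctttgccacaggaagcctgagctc
ABCC4: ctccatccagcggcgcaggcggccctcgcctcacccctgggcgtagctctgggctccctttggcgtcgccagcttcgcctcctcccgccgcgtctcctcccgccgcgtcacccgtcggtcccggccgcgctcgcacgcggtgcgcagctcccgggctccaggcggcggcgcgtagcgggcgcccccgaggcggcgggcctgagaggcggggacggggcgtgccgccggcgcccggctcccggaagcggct
The ABCA1 window held 3 GC boxes, 1 E-box, 1 TATA box and 1 DR4-like repeat, the last of these 69 to 55 bases before the start. The ABCB1 window held CCAAT on each strand, 1 match at 238 to 234 and 1 at 79 to 75 bases before the start, and the ABCC4 window held none of the 5 motifs. Among all 35116 windows of this length, 42.6% held the GC box, 32.0% the box CCAAT, 6.34% the E-box, 10.7% the TATA box and 0.533% the DR4-like repeat. A match is a run of letters and not evidence of binding in these cells.

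ABCA7, a close relative of ABCA1 that acts on phospholipid and in phagocytosis, ran the other way. Its single probe set had signals of 242 and 271 in parental and resistant Jeko-1 cells, and of 489.6 and 720.1 in the Raji cells. Both Raji values lay above both Jeko-1 values, by 2.02-fold in parental and 2.65-fold in resistant cells (limma log2 difference -1.21 ± 0.26 SE, adjusted p = 0.00696).

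ABCB4 exports phosphatidylcholine and is the nearest relative of ABCB1. Its brightest probe set, 207819_s_at, gave 433 and 539 in the parental and resistant Jeko-1 cells, against 263 and 253 in the Raji cells. The Jeko-1 lines were 1.64-fold and 2.13-fold higher (limma log2 difference 0.90 ± 0.26 SE, adjusted p = 0.0234). The other, 1570505_at, gave 357 and 428 against 12.7 and 67.0, at least 4.61-fold and 5.52-fold apart. Neither probe set had a Raji value as high as either Jeko-1 value.

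ABCB1 encodes P-glycoprotein, the pump best known from drug-resistant tumours. Its signal was below the floor on 3 of 4 arrays: 209993_at gave 45.5 and 26.7 in parental and resistant Jeko-1 cells, and 132 and 15.7 in the Raji cells. The other probe set stayed between 9.22 and 57.0. Neither resistant subline reached the floor for ABCB1. Raji/R was at least 1.71-fold below Raji at 209993_at, and this log2 difference, -0.77 after the floor, was -1.06 with quantile normalization of the arrays, -1.23 with a signal-dependent adjustment and -1.17 with a pseudocount in place of the floor.

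ABCG2, also called breast cancer resistance protein, had 1 probe set, with signals of 24.98 and 37.2 in parental and resistant Jeko-1 cells, and of 81.7 and 30.1 in the Raji cells. Only Raji lay above the floor, by a small margin. ABCC3, an exporter of bile acids and glucuronides, reached the floor in 2 of 5 probe sets. The brighter of these, 209641_s_at, gave 66.2 and 77.2 in parental and resistant Jeko-1 cells and 71.5 and 135 in the Raji cells. The other, 239217_x_at, gave 43.9 and 4.998 against 77.1 and 115. The remaining 3 stayed between 3.31 and 49.9. Both reached the floor in Raji/R alone. For ABCB1, ABCG2 and ABCC3 these signals give upper bounds and no ratios between most arrays.

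ABCC1, also called MRP1, exports glutathione conjugates and leukotriene C4. Its brightest probe set, 202804_at, had signals of 3221 and 3516 in parental and resistant Jeko-1 cells and of 7691 and 8757 in the Raji cells, so that the Raji lines were 2.39-fold and 2.49-fold higher (limma log2 difference -1.29 ± 0.25 SE, adjusted p = 0.00447). The other, 202805_s_at, gave 242, 201, 561 and 547 in the same order, or 2.31-fold and 2.72-fold. The Raji and Jeko-1 values did not overlap in either.

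ABCC4, also called MRP4, exports cyclic nucleotides and prostaglandins, and was below the floor on both Jeko-1 arrays in all 4 probe sets. Its brightest probe set, 203196_at, gave 43.8 and 38.9 in the parental and resistant Jeko-1 cells, against 962 and 536 in the Raji cells. The Raji lines were at least 12.4-fold and 6.92-fold higher. In limma the log2 difference was -3.21 ± 0.29 SE (adjusted p = 0.000193), a lower bound in size. Both Jeko-1 values entered this fit as the floor, so its SE and p-value leave out the spread between the Jeko-1 arrays. A second bright one, 1554918_a_at, had 25.1 and 38.3 against 553 and 469, and was at least 7.13-fold and 6.05-fold higher in the Raji lines. The dimmer 1555039_a_at and 243928_s_at gave 104 and 48.8 in Raji, 189 and 182 in Raji/R, and 3.57 to 14.3 on the Jeko-1 arrays.

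ABCC5, also called MRP5, exports cyclic GMP and nucleotide analogues, and its probe sets disagreed. At 209380_s_at the signals were 201 and 198 in parental and resistant Jeko-1 cells and 722 and 1104 in the Raji cells, so that Raji was 3.59-fold and Raji/R 5.58-fold higher (limma log2 difference -2.16 ± 0.28 SE, adjusted p = 0.000721). At 1558460_at the direction was the same, 109 and 146 against 495 and 419. At 226363_at it was the opposite, with 568 and 538 in the Jeko-1 lines and 333 and 242 in the Raji lines (limma log2 difference 0.96 ± 0.26 SE, adjusted p = 0.0182). No direction for the gene as a whole can be given.

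The second question was whether resistance went with a change in any of these transporters. In Jeko-1/R against Jeko-1, 0 of 16 measured probe sets were 2-fold higher and 0 were 2-fold lower, against 0.435% and 0.551% of all 22317 measured probe sets. In Raji/R against Raji 1 of 18 was 2-fold higher and 0 were 2-fold lower, against 7.43% and 2.94% of 26874. At 1 probe set among 18 the count stands near the background. In limma over both lines, resistant against parental, 0 of 24 probe sets passed the adjusted threshold, as did 0% of all 29669, and 0 of 24 had an unadjusted p under 0.05, against 2.27% of all. The fitted log2 differences ran from -0.42 to 0.62, with standard errors of 0.25 to 0.34, and the lowest unadjusted p was 0.114. With 2 pairs this fit could miss changes of that size.

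**Figure D3:**
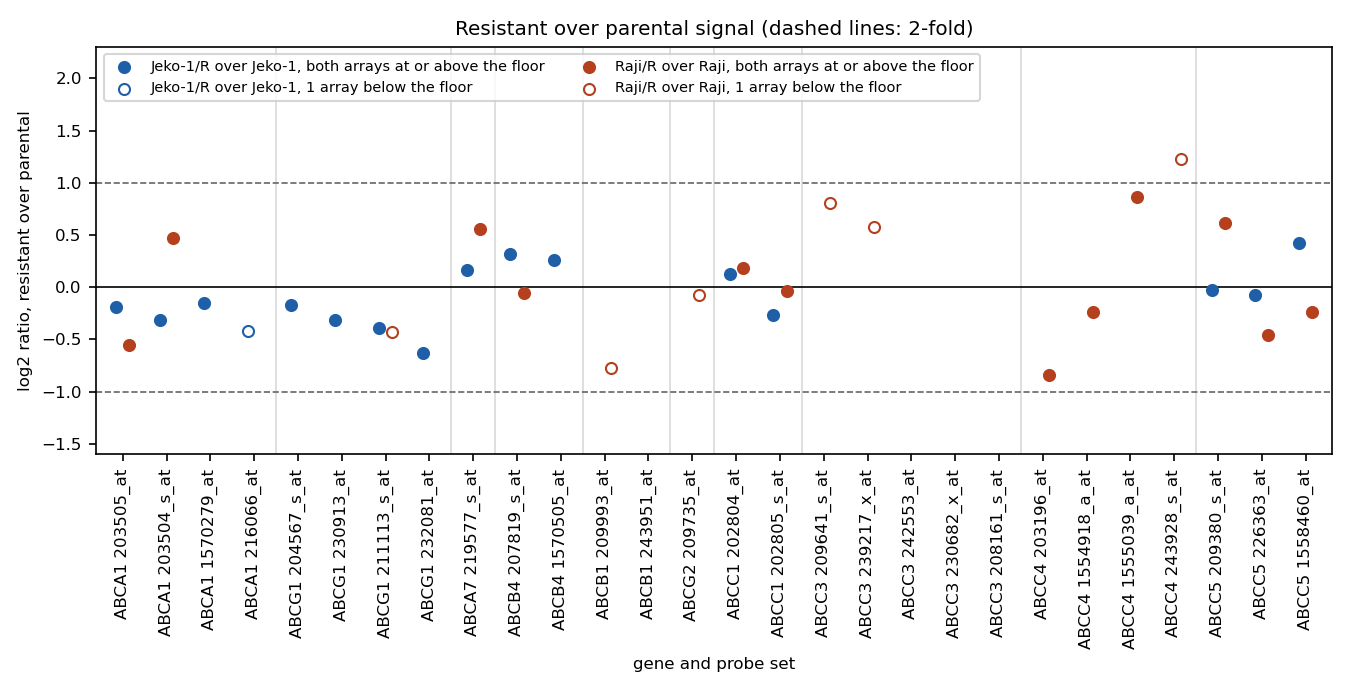
Log2 ratio of resistant over parental signal (y axis) for each probe set (x axis, grouped by gene) in the Jeko-1 pair (blue) and the Raji pair (red); open points have 1 array below the floor and dashed lines mark 2-fold. All Jeko-1 points lie between -0.63 and 0.42, and a single ABCC4 point of the Raji pair, at 1.23, passes 2-fold.

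In the Jeko-1 pair the measured ratios were small. All 4 ABCG1 probe sets were lower in Jeko-1/R, with log2 ratios of -0.17, -0.32, -0.39 and -0.63, and all 4 ABCA1 probe sets were lower, from -0.15 to -0.32 at 3 of them and by at least 0.42 at 216066_at, from 104 to 30.8. The larger of these exceed the 0.25 spread of probe sets, but the probe sets of a gene were read from the same RNA and are not replicates. ABCB4 was slightly higher at both probe sets (0.31 and 0.26) and ABCA7 at its one (0.16). ABCC1 stood at 0.13 and -0.27 and ABCC5 at -0.02, -0.08 and 0.42. ABCB1, ABCG2, ABCC3 and ABCC4 had no array of this pair above the floor and gave no ratio.

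In the Raji pair ABCC4 was the member with the widest spread. Its 2 brighter probe sets were lower in Raji/R, with log2 ratios of -0.84 and -0.24, and its 2 dimmer ones higher, with 0.86 and at least 1.23, the last from 48.8 to 182 at 243928_s_at. Of the probe sets near 243928_s_at in mean signal (within 0.25 log2 units, 3225 in all), 22.9% were at least 2-fold higher in Raji/R and the median was 0.39. The signal-dependent adjustment brought this probe set below 2-fold. The 2 measured ABCC3 probe sets, also dim, were at least 1.75-fold and 1.49-fold higher, where probe sets of like signal had medians of 0.44 and 0.42.

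The remaining ratios of the Raji pair with both arrays above the floor were under 2-fold. ABCA7 stood at 0.56, and ABCC1 at 0.19 and -0.04. ABCC5 gave 0.61, -0.46 and -0.24, and ABCA1 gave -0.56 at 203505_at and 0.47 at 203504_s_at, where the latter was -0.10 after the signal-dependent adjustment. ABCB4 stood at -0.06. ABCG2 and ABCG1 gave lower bounds alone, which set no upper limit on the difference: ABCG2 was at least 1.05-fold lower in Raji/R, and ABCG1 at least 1.35-fold lower at 211113_s_at, from 105 to 5.42. With a pseudocount in place of the floor that ABCG1 probe set stood at -1.14. For ABCA1, ABCC4 and ABCC5 the probe sets of 1 gene thus pointed both ways, as they did by a small margin for ABCC1.

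The other ABC transporters, a list of 38 genes of which 34 had a probe set, also differed little within a line. By brightest probe set, 0 of 18 measured genes passed 2-fold in the Jeko-1 pair, against 0.38% of 11588 genes higher and 0.595% lower, and 2 of 20 did in the Raji pair, against 7.01% of 14642 higher and 2.64% lower. These 2 were ABCA3, a lipid transporter of lamellar bodies, from 108 to 263 (log2 ratio 1.29), and ABCC8, the sulfonylurea receptor, which went from 238 to below the floor, at least 3.07-fold lower. Between the lines 2 of 21 were 2-fold higher in Jeko-1 in both states and 2 in Raji, against 17.5% and 19.2% of all genes. Those higher in Jeko-1 were ABCA6 and the peroxisomal fatty acid carrier ABCD3. Those higher in Raji were TAP1 and TAP2, which load peptides for MHC class I. TAP1 gave 1333 and 1531 in the Jeko-1 lines against 7479 and 9314 in the Raji lines. The other ABCD3 probe set was lower in the Jeko-1 lines, by 1.52 and 1.16 on the log2 scale. ABCF2 was not among those counted at the brightest probe set, but its further probe sets were also higher in the Raji lines. Their log2 ratios of Jeko-1 over Raji ran from -3.12 to -1.11 in parental and from -3.19 to -1.77 in resistant cells.

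Genes that sense sterols or take part in lipid efflux were measured at 22 of 24. In the Jeko-1 pair 0 of 18 passed 2-fold, and in the Raji pair 5 of 20 were higher and 2 lower, against 7.01% and 2.64% of all genes. The median log2 ratio was 0.40, and 0.08 over all genes. NR1H3, the gene of LXR alpha, went from 229 in Raji to 92.0 in Raji/R (-1.32) and was below the floor in both Jeko-1 lines, at 54.4 and 52.7. CYP27A1, a sterol hydroxylase, was at least 3.42-fold higher in Raji/R, with a signal of 265, and APOC1 and PLTP, a lipoprotein component and a phospholipid carrier, were at least 3.02-fold and 2.79-fold higher, at 234 and 216. The other APOC1 probe set was lower in Raji/R (-1.08). SNTB1, a syntrophin that binds ABCA1, was at least 2.16-fold higher in Raji/R. CYP27A1, APOC1, PLTP and SNTB1 were each below the floor in Raji. Of the probe sets close in signal to the dim ABCC3 and ABCC4 ones, 13.8% to 23.7% were at least 2-fold higher in Raji/R. The share of 7.01% over all genes is thus a low background for dim genes, and the part of this in the count was not tested.

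Between the lines, 5 of the 22 sterol genes were at least 2-fold higher in Jeko-1 in both states and 7 in Raji, against 17.5% and 19.2% of all genes, so that the first count stood near the background. SNTB1 gave 2182 and 2325 in the Jeko-1 lines and 57.7 and 167 in the Raji lines, a ratio of at least 28.2-fold and of 13.9-fold. LPL, lipoprotein lipase, was at least 3.89-fold and 6.13-fold higher in the Jeko-1 lines. CETP, a lipoprotein cholesterol ester carrier, was 2.86-fold and at least 4.18-fold higher in the Raji lines. SREBF1, a lipid synthesis regulator that LXR induces, was the reverse of ABCA1 and ABCG1, with 96.0 and 137 in the Jeko-1 lines and 1133 and 976 in the Raji lines. LPCAT3 and MYLIP, further LXR targets, were named after their values were seen. LPCAT3 was 2.87-fold and 2.23-fold higher in the Raji lines, and MYLIP was 2.09-fold higher in Jeko-1 than in Raji and 1.08-fold lower in Jeko-1/R than in Raji/R, with 4 other MYLIP probe sets that did not all point one way.

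Lists for the substrates and handling of the drug pumps gave a like picture. In the Jeko-1 pair, 1 gene of 13 measured uptake carriers was 2-fold lower, the folate carrier SLC46A1 (from 164 to 77.3, just under the floor), and 1 of 15 lipid mediator genes was higher, the prostaglandin D synthase PTGDS (from below the floor to 175). Another SLC46A1 probe set was higher in Jeko-1/R (0.41), and the other PTGDS probe sets stayed below the floor in both. The transcription factors (19 measured), glutathione and conjugation enzymes (20), cyclic nucleotide enzymes (12) and protein partners (11) had 0. In the Raji pair the 2-fold counts were 1 of 20, 2 of 23, 2 of 22 and 1 of 11 for these 4 lists, 2 of 21 for the carriers and 2 of 17 for the lipid mediators. Over all genes the share was 9.64%, so these counts stood near the background, and the genes are named as a description. Of these 10 genes, FBXO15 was lower and the others higher, and only EGR1, GSTM1, SLC29A2 and PTGDS were above the floor on both arrays. EGR1, an immediate-early transcription factor, went from 1727 to 3994 in Raji/R. In Jeko-1/R it was less than 2-fold higher at this probe set (0.76), and its other probe sets gave 0.88 and 1.12. SLC29A2, a nucleoside carrier, went from 292 to 638, GSTM1, a glutathione transferase, from 220 to 513, and PTGDS from 171 to 471, where another PTGDS probe set stood at -0.97. Other probe sets of SLC29A2 gave 0.19 and -0.007, and the other of GSTM1 gave 0.02. Lower bounds for the rest of those higher were 3.08-fold for SLC46A1, 2.92-fold for the lipoxygenase ALOX12, 2.86-fold for GSTM3 and PDE2A and 2.83-fold for PDE5A. FBXO15, a ubiquitin ligase subunit, was at least 2.86-fold lower.

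Between the lines these lists held larger differences, as did genes in general: 36.7% of all were 2-fold apart in both states. Counts higher in Jeko-1 and in Raji were 5 and 4 of 20 transcription factors and 3 and 9 of 24 glutathione and conjugation enzymes. They were 4 and 2 of 24 cyclic nucleotide enzymes, 2 and 7 of 20 lipid mediator genes and 2 and 5 of 12 protein partners. The genes are named as a description. Among transcription factors, NFYB, which binds CCAAT as part of NF-Y, was 16.2-fold and 8.27-fold higher in the Jeko-1 lines and SP3, which binds GC boxes, 7.12-fold and 6.45-fold. NFYC, another NF-Y subunit, was 6.37-fold and 4.91-fold higher in the Raji lines, and the deacetylase HDAC1 4.43-fold and 3.69-fold. A dimmer SP3 probe set and a dimmer NFYC probe set pointed the other way. GSTP1, the glutathione transferase that forms conjugates for ABCC1, gave 6457 and 5195 in the Jeko-1 lines and 251 and 229 in the Raji lines, 25.7-fold and 22.7-fold apart. UGT8, a galactosyltransferase, was at least 15.6-fold and 15.0-fold higher in the Jeko-1 lines, and GSTO2 at least 5.71-fold and 6.35-fold higher in the Raji lines. GCLM, a subunit of the enzyme that starts glutathione synthesis, was 7.87-fold and 5.64-fold higher in the Raji lines at its brightest probe set, while its other probe sets were lower there. Among cyclic nucleotide enzymes, PDE3B and PDE9A were at least 14.0-fold and 17.6-fold higher in Jeko-1, and the adenylate cyclase ADCY3 was 6.05-fold and PDE6D 2.88-fold higher in Raji. MVP, the major vault protein, gave 107 and 172 against 540 and 536. HAX1, a partner of ABCB-type transporters, was 4.69-fold and 3.76-fold higher in the Raji lines, while its other probe set was slightly higher in the Jeko-1 lines (0.25 and 0.22). CAV1, caveolin, was at least 5.16-fold and 3.50-fold higher in the Jeko-1 lines. RDX, radixin, which ties membrane transporters to actin, was at least 123-fold and 120-fold higher in the Jeko-1 lines. The folate carrier SLC19A1 was 7.70-fold and 5.54-fold and the organic anion carrier SLCO3A1 10.1-fold and 8.57-fold higher in the Raji lines, and of 21 uptake carriers 0 were 2-fold higher in Jeko-1 in both states and 6 in Raji, against 17.5% and 19.2% of all genes.

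**Figure D4:**
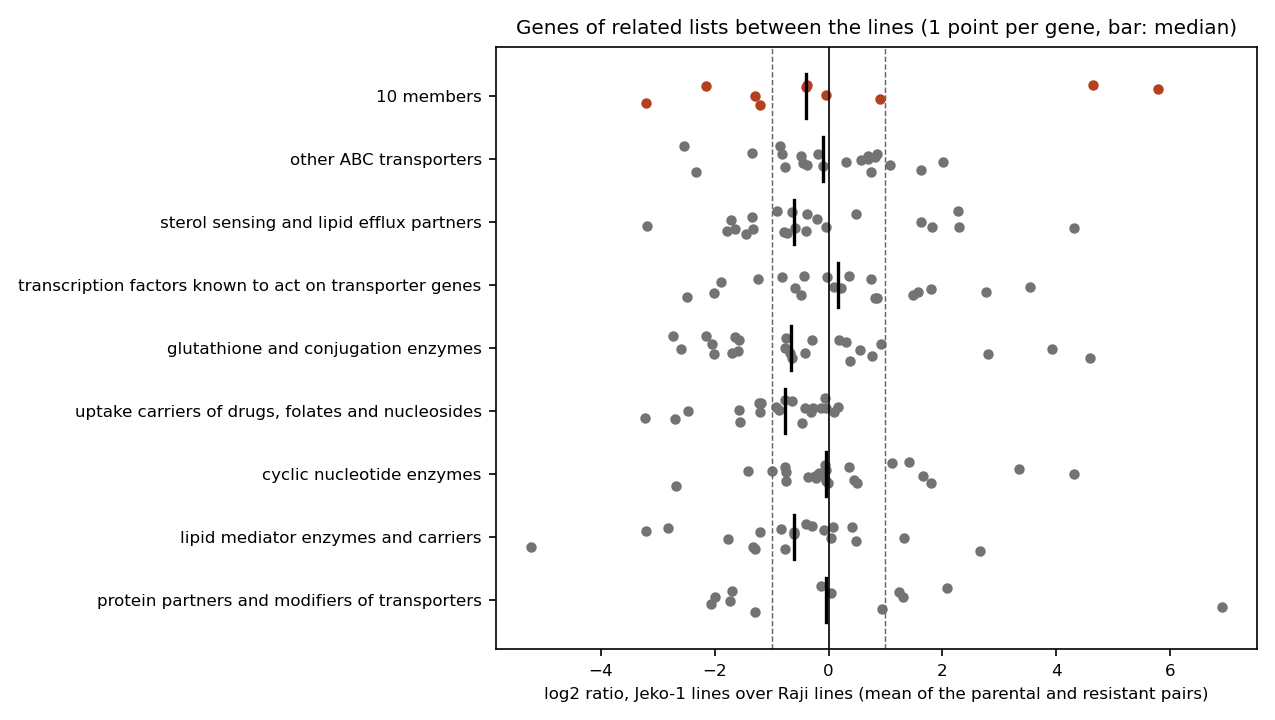
Log2 ratio of the Jeko-1 lines over the Raji lines (x axis, mean of the parental and the resistant pair, after the floor) for the brightest probe set of each gene, 1 point per gene, by gene list; bars are medians and dashed lines mark 2-fold. The 10 transporters reach from ABCC4 at -3.21 to ABCG1 at 5.79, with a median of -0.39.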

How the data were processed

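Total RNA from 4 cultures was extracted with Trizol and 6 µg labelled for the array, per the labels' protocols. Signals were made with MAS5, per the submitters' processing notes; no version was named. The values deposited by the authors are log2 signals, the base being read from the values: on base 2 the trimmed mean signal was 494 to 497 on all arrays. MAS5 scales an array by 1 factor, so differences that depend on signal level stay in. Detection calls were not used here, and precision is limited by the number of arrays.

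Probe sets were named from the platform annotation; 41037 gene IDs matched RefSeq (GRCh38.p14). Values below the pooled median were raised to it. A gene in a list was read at its brightest probe set on average. limma 3.58.1 (R 4.3.3; two-sided, Benjamini-Hochberg adjustment) was fitted on 29669 probe sets and tested on simulated data; cell line pairs each subline with its parent. The members and all 8 lists were chosen with earlier results of these data known. Named genes were all members, list genes past 2-fold within a line (at most 4 per list and pair) and the 2 largest differences per direction between lines, at the brightest probe sets; LPCAT3 and MYLIP were added after seeing values. Alternatives were quantile normalization, a lowess adjustment (fraction 0.3) on mean signal, a floor at the 75th percentile, no floor, a pseudocount of 77.5, no x_at or s_at probe sets (which may bind other transcripts), the mean of probe sets and other limma settings. Python 3.11.15, numpy 2.4.6, pandas 2.3.3 and statsmodels 0.14.6 were used.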

Additional observations from a re-analysis of the deposited data

Results flagged for a closer look

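At 4 of the 9 probe sets above the floor on all arrays, resistant and parental cells differed in opposite directions in the Jeko-1 and Raji lines. The difference between the lines' log2 ratios (Jeko-1 pair less Raji pair) was 0.37 at ABCB4 207819_s_at, -0.64 at ABCC5 209380_s_at, 0.66 at ABCC5 1558460_at and -0.79 at ABCA1 203504_s_at. With 1 array per group these differences were not tested, and the share of all probe sets with opposite directions was not counted. The Raji ratio was only -0.06 at ABCB4 207819_s_at, and the Jeko-1 ratio only -0.02 at ABCC5 209380_s_at. The 2 ABCC5 probe sets differed between the lines in opposite senses, and the brighter ABCA1 probe set, 203505_at, was lower in both resistant sublines. With the lowess adjustment the Raji ratio of ABCA1 203504_s_at turned from 0.47 to -0.10, so that both sublines were then lower there too.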

How the results depend on the processing

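The count of transporter probe sets 2-fold apart in the Jeko-1 pair was 0 with every alternative except no floor, which gave 4. In the Raji pair the count of 1 became 2 with quantile normalization, 3 with a pseudocount, and 7 without a floor. It was 0 both with a higher floor (the 75th percentile) and when x_at and s_at probe sets were left out; with the lowess adjustment it was again 1, but ABCB1 209993_at in place of ABCC4 243928_s_at. Without a floor the added probe sets had values below it on at least 1 array. The count of 14 between the lines became 5 with the higher floor (ABCA1 and ABCG1 at 2 probe sets each and ABCC1 at 1) and 8 when x_at and s_at probe sets were left out, which left 14 measured; other settings gave 13 to 18, the highest on the resistant arrays alone. The limma count between the lines, 18, was 0 without a floor and 10 without the x_at and s_at types, and 13 to 19 otherwise; the resistance count was 0 in every fit. Without x_at and s_at probe sets the log2 difference between the lines of ABCC5 turned from -2.16 to 0.96 and that of NFYC from -2.48 to 0.43. Of 142 recomputed member values, 125 moved by less than the spread between probe sets. No paired analysis by replicate number was possible because each group had 1 array. Signals near the floor limit what can be said of ABCB1, ABCG2 and ABCC3.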

Other observations

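A further probe set, 209994_s_at, was annotated to both ABCB4 and ABCB1 and so was left out of the rule. Its signals were 706 and 845 in parental and resistant Jeko-1 cells, against 399.9 and 364 in the Raji cells. Its resistant over parental log2 ratio was 0.26 for Jeko-1 and -0.14 for Raji, and the Jeko-1 line was higher by 0.82 in parental and 1.22 in resistant cells. The order of the 4 arrays was the same as at the ABCB4 probe set 207819_s_at.

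Among genes of lipid signalling, S1PR2, a sphingosine 1-phosphate receptor of germinal-centre B cells, was 27.5-fold higher in Raji than in Jeko-1 and 51.5-fold higher in Raji/R than in Jeko-1/R. S1PR1, the receptor that guides lymphocyte egress, was at least 2.50-fold higher in the Jeko-1 lines in both states, with signals of 194 and 194 against 13.8 and 49.1. SGPP1, a phosphatase that removes sphingosine 1-phosphate, was 6.203-fold and 6.46-fold higher in the Jeko-1 lines. PTGS1, the constitutive cyclooxygenase, was 9.76-fold and 8.84-fold higher in the Raji lines, the side on which the prostaglandin exporter ABCC4 was also higher.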
